A study of Mus musculus with 8 samples.

Results

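The aortas of 4 ApoE-/- and 4 WT mice were compared for 10 genes that build or serve lymphoid tissue: the homing chemokines Cxcl13, Ccl19 and Ccl21a, the receptors Ccr7 and Cxcr5, the lymphotoxin genes Lta, Ltb and Ltbr, and the high endothelial venule genes Glycam1 and Chst4. They were taken by gene symbol from a list drawn up with earlier results of these data known, and all 10 had a row among the 21859 genes of the count files. The ApoE-/- mice lacked apolipoprotein E from the germline in every tissue, and the WT mice carried the unmodified gene. Both groups were male C57BL/6 mice of 40 weeks on a normal (chow) diet. Each library held the ribodepleted total RNA of 1 whole aorta, so the vessel wall, its attached tissue and any leukocytes in it were measured together, and fewer cells of a type could not be told apart from less RNA per cell.

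Tertiary lymphoid organs are clusters of B cells, T cells and dendritic cells that form outside lymph nodes during long-lasting inflammation. In aged ApoE-/- mice they are known from the adventitia next to atherosclerotic plaques, chiefly along the abdominal aorta, where they are called arterial tertiary lymphoid organs. Their assembly follows that of lymph nodes: lymphotoxin, a complex of the Lta and Ltb products on lymphocytes, binds the lymphotoxin beta receptor (Ltbr) on stromal and smooth muscle cells, which answer through alternative NF-kB signalling with the chemokines CXCL13, CCL19 and CCL21. CXCL13 draws B cells through CXCR5, CCL19 and CCL21 draw T cells and dendritic cells through CCR7, and lymphocytes enter through high endothelial venules, whose sulphated L-selectin ligands include GLYCAM1, with CHST4 as a sulphotransferase that makes them.

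None of the 10 genes was called different between the genotypes. With edgeR's quasi-likelihood test and Benjamini-Hochberg adjustment at a threshold of 0.05, 70 of 15077 genes tested were called, or 0.464% (0.371% higher and 0.0929% lower in ApoE-/- mice). Of the 10 genes, 6 had enough reads to be tested (Cxcl13, Ccr7, Cxcr5, Ltb, Ltbr and Glycam1) and 0 of these 6 were called. DESeq2, which called 721 of 16803 genes with an adjusted p (4.29%), also called 0. Unadjusted p-values under 0.05 were found for 4 of the 6 genes, namely Ccr7, Cxcr5, Ltb and Ltbr, against 11.4% of all genes tested. All 4 estimates were above 0, a direction in which 7.19% of all genes had such a p, and Cxcl13 also had an estimate above 0, as did 58% of all genes. The genotypes overlapped for each of the 10 genes, whereas 8.71% of the genes tested had no overlap (5.41% higher and 3.3% lower in ApoE-/- mice). The median log2 fold change of ApoE-/- over WT was 0.631 over the 6 genes and 0.0474 over all genes tested. This median leaves out the sparse genes, for which DESeq2 estimated 1.13 (Ccl19), -0.58 (Lta) and -3.80 (Chst4), and Ccl21a, which had no reads. For sparse genes such as Ccr7, passing the low-count filter can depend on the group with the higher values. The median and the unadjusted count share that limit.

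The libraries held 23240995 to 23940156 read pairs on genes in ApoE-/- mice and 18375898 to 21664598 in WT mice. A count of 3, taken as the floor of detection, equalled 0.122 to 0.166 CPM (CPM, the read pairs on a gene divided by those on all tested genes, scaled to 1000000 and by TMM factors), and it covers counting error only. Apoe, the deleted gene, stood at 14.7 to 36.3 CPM in ApoE-/- and 536 to 857 CPM in WT mice. Of the smooth muscle genes that mark the aortic wall, Myh11, the smooth muscle myosin heavy chain, reached 1884 to 8224 CPM in ApoE-/- and 4200 to 8032 CPM in WT mice. ApoE-/- replicate 1 stood apart, with a median correlation of 0.866 with the other ApoE-/- libraries, against 0.948 to 0.985 for the other 7 libraries within their groups. Without it edgeR called 593 of 15147 genes (3.91%), and still 0 of the 10.

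Ccl21a, the T cell zone chemokine, was the only one of the 10 genes at 0 in all 8 libraries. Its sequence is shown because most of it is shared with neighbouring copies of the gene. Ccl21a lies at chr4:42772860-42773993 on the minus strand of GRCm38 and overlaps 4930578G10Rik on the opposite strand. Of its 821 stretches of 50 bases, the read length, 588 (71.6%) also occurred in the annotated transcripts of other genes, and 233 did not. These were Ccl21d (chr4:41903610-41904743), Gm13304 (chr4:42114817-42115917), Ccl21b (chr4:42255767-42256432) and Gm10591 (chr4:42612195-42612860). All 4 copies have the same coding length as Ccl21a, 402 bases, and each differs from it at the same 2 coding positions, T84A in codon 28 (exon 2, chr4:42773747) and C194T in codon 65 (exon 3, chr4:42773543). Positions are counted from 1 at the first base of the start codon, with the Ccl21a base first. Around each of them, with 20 bases on both sides and the differing base in capitals, the coding strands read:
Ccl21a around position 84: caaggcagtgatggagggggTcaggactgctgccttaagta
Ccl21b, Ccl21d, Gm13304 and Gm10591 around position 84: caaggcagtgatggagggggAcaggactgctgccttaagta
Ccl21a around position 194: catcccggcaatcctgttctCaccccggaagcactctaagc
Ccl21b, Ccl21d, Gm13304 and Gm10591 around position 194: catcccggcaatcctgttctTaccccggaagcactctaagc

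Adding the copies did not bring the Ccl21 family above the floor. The 5 rows together held 1 read pair over all 8 libraries, on Ccl21b in ApoE-/- replicate 2. Read pairs that aligned to several places were left out of every gene's count by the authors and made up 11.8% to 14.3% of the pairs in a library, or 8483435 to 10843312 pairs. Whether any of them came from the Ccl21 genes was not tested. CCL21 is also made by lymphatic endothelium. Of the genes listed for this endothelium, Lyve1, the hyaluronan receptor, averaged 46.8 ± 28.4 CPM in ApoE-/- and 44.7 ± 9.75 CPM in WT mice (SD, n = 4 each). Prox1, the lymphatic transcription factor, averaged 11.7 ± 4.34 and 17.5 ± 0.631 CPM. Any relation of these values to the Ccl21a counts was not tested. Lyve1 and Prox1 were named here after their values were seen.

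**Figure D1:**
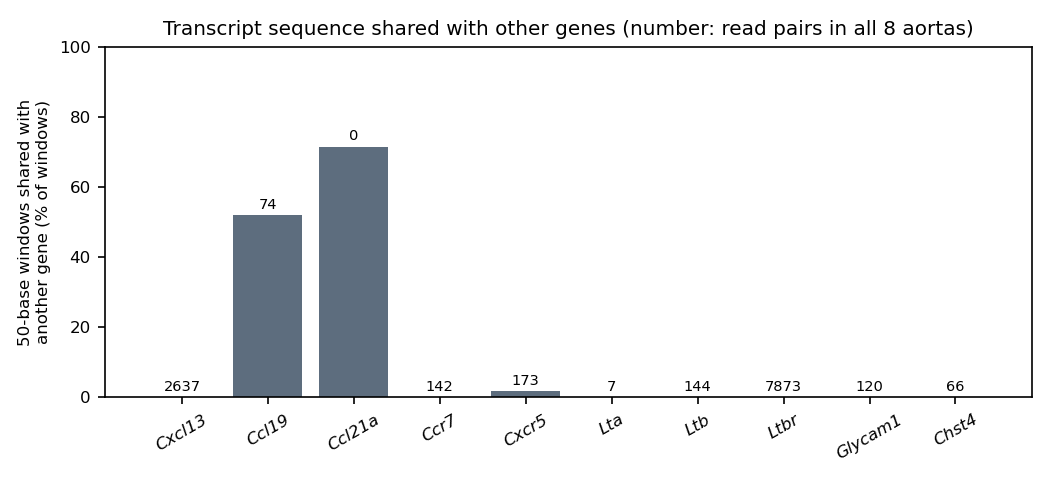
Bars give, for each of the 10 genes, the percentage of all 50-base stretches of its annotated transcripts that also occur in a transcript of another gene, and the number over each bar is the sum of read pairs in all 8 aortas. Ccl21a (71.6%, 0 pairs) and Ccl19 (52%, 74 pairs) share most of their sequence, Cxcr5 shares 1.86%, and the other 7 genes share none.

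Ccl19, the other CCR7 ligand (chr4:42754525-42756577, minus strand), shared 475 of its 914 stretches of 50 bases (52%) with Gm2564 and 3 pseudogenes, none of which was a row of the files. Its coding sequence of 327 bases differs from that of Gm2564 only by T2C, which lies in the start codon. Ccl19 also overlaps 4930578G10Rik on the opposite strand, and how many of its read pairs were left out as not unique was not tested. It received 13, 6, 15 and 19 read pairs in ApoE-/- replicates 1 to 4 and 8, 7, 6 and 0 in WT replicates 1 to 4. The ApoE-/- mice were at 0.528, 0.262, 0.653 and 0.825 CPM and the WT mice at 0.367, 0.328, 0.332 and 0 CPM. Thus 3 ApoE-/- mice lay above every WT mouse and ApoE-/- replicate 2 lay below 3 of them. Ccl19 did not pass the low-count filter of edgeR, DESeq2 did not call it (log2 fold change 1.13, adjusted p = 0.667), and the difference of 0.31 CPM gave p = 0.114 in a two-sided exact permutation test of 4 against 4 mice, in which p cannot go below 0.0286.

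Cxcl13, the B cell chemokine (chr5:95956951-95961068, plus strand), was by far the best counted of the 3 ligands and did not separate the genotypes. The ApoE-/- libraries held 502, 233, 188 and 654 read pairs (20.4, 10.2, 8.19 and 28.4 CPM in replicates 1 to 4), and the WT libraries 155, 322, 178 and 405 (7.11, 15.1, 9.86 and 19.4 CPM). Each genotype thus held high and low mice. ApoE-/- replicates 1 and 4 lay above every WT mouse, and ApoE-/- replicates 2 and 3 lay within the WT range. The means were 16.8 ± 9.40 CPM in ApoE-/- and 12.9 ± 5.46 CPM in WT mice (SD, n = 4 each). edgeR gave a log2 fold change of 0.38 (SE 0.46, adjusted p = 0.831), with a 95% interval of the fold from 0.631 to 2.70. Without ApoE-/- replicate 4 it fell to 0.00686, and without WT replicate 4 it was 0.651.

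Both chemokine receptors had higher estimates in ApoE-/- mice, and neither passed the adjusted threshold. Ccr7 (chr11:99144196-99155077, minus strand), the receptor that brings T cells and dendritic cells into lymphoid tissue, received 23, 15, 25 and 40 read pairs in ApoE-/- replicates 1 to 4 and 14, 6, 12 and 7 in the WT replicates. In CPM these were 0.934, 0.656, 1.09 and 1.74 against 0.643, 0.281, 0.665 and 0.335. Only ApoE-/- replicate 2 fell within the WT range, where it lay just below WT replicate 3. The log2 fold change of Ccr7 was 1.19 (SE 0.41, edgeR adjusted p = 0.28), a fold of 2.29 with a 95% interval from 1.19 to 4.40. The exact permutation test of the CPM values, two-sided, gave p = 0.0571. When single mice were omitted the log2 value of Ccr7 ran from 0.892 to 1.38, and in no fit did the adjusted p pass the threshold.

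Cxcr5 (chr9:44511787-44561877, minus strand), the CXCL13 receptor of B cells and follicular helper T cells, received 34, 38, 31 and 16 read pairs in ApoE-/- mice and 17, 15, 10 and 12 in WT mice. In CPM these were 1.38, 1.66, 1.35 and 0.694 against 0.780, 0.702, 0.554 and 0.575. ApoE-/- replicates 1 to 3 were all above the highest WT mouse, and replicate 4 lay among the WT mice. For Cxcr5 edgeR gave a log2 fold change of 0.95 (SE 0.31, adjusted p = 0.243), a fold of 1.94 with a 95% interval from 1.19 to 3.16 (exact permutation test, two-sided, p = 0.0857). In DESeq2 without ApoE-/- replicate 4, a fit added after the data were seen, Cxcr5 was called higher (log2 fold change 1.14, adjusted p = 0.0463), in a fit that called 4.12% of genes. Its exons share 61 stretches (1.86%) with Bcl9l on the opposite strand. The 2 receptors were not high in the same animals, since ApoE-/- replicate 4 had the highest Ccr7 and the lowest Cxcr5 of its group, and replicate 2 the reverse.

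**Figure D2:**
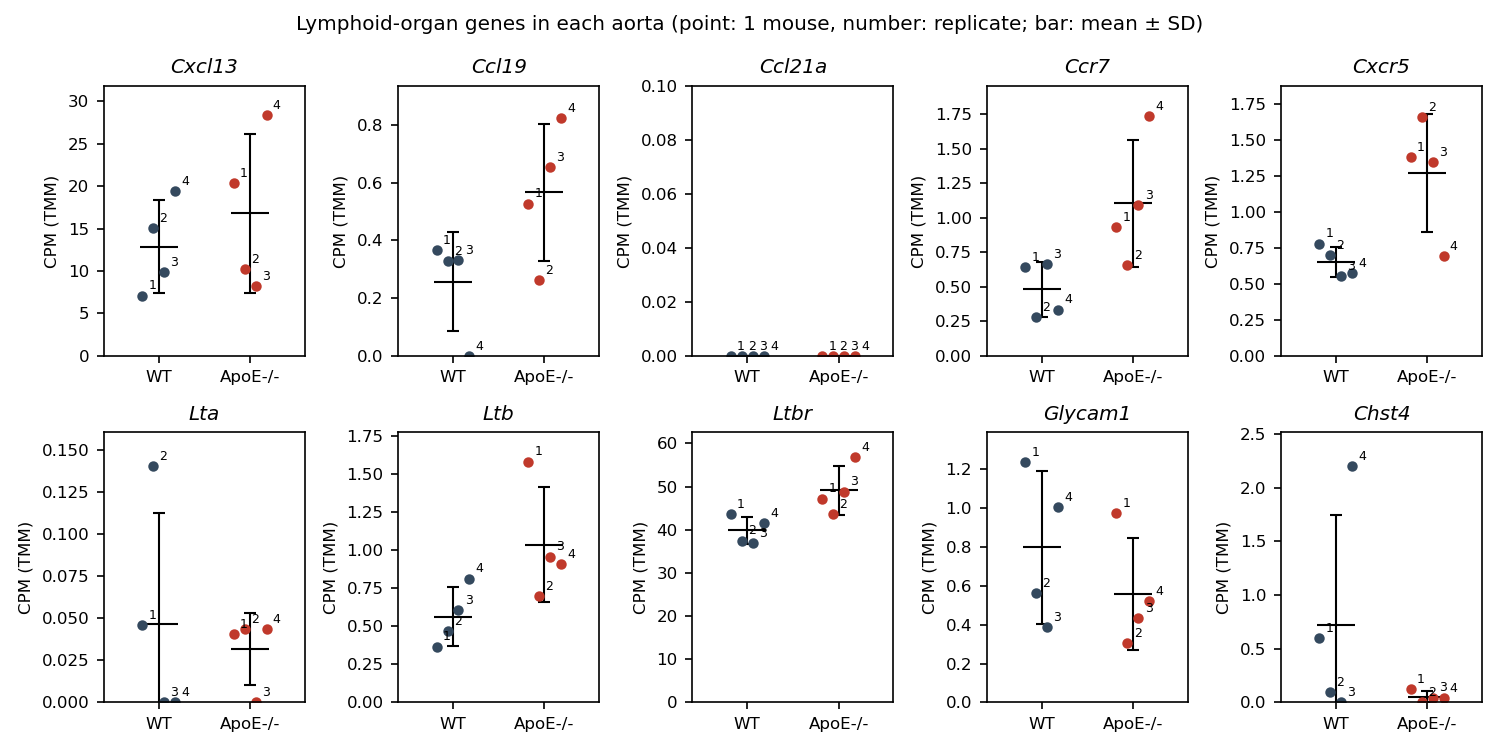
Each panel gives the level of 1 gene in CPM (vertical axis, from 0) for the 4 WT and 4 ApoE-/- aortas, with 1 point per mouse labelled by its replicate number and bars for the mean ± SD. The genotypes overlap in all panels: 3 of 4 ApoE-/- mice exceed every WT mouse for Ccl19, Ccr7, Cxcr5, Ltb and Ltbr, and Chst4 is high only in WT replicates 1 and 4.

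The 2 ligand genes of lymphotoxin differed in level, with Lta near the floor in every mouse. Lta (chr17:35203165-35205351, minus strand) encodes the subunit common to the soluble and membrane forms. It received 1, 1, 0 and 1 read pairs in ApoE-/- mice and 1, 3, 0 and 0 in WT mice, so a difference was not detectable at this depth (exact permutation test, two-sided, p = 0.714, n = 4 each). Ltb (chr17:35194439-35196320, plus strand), which anchors the complex to the lymphocyte membrane, received 39, 16, 22 and 21 read pairs in ApoE-/- and 8, 10, 11 and 17 in WT mice. In CPM these were 1.58, 0.7, 0.958 and 0.911 against 0.367, 0.468, 0.609 and 0.814. ApoE-/- replicate 2 alone fell within the WT range, below WT replicate 4. The estimate for Ltb was 0.88 on the log2 scale (SE 0.36, edgeR adjusted p = 0.384, exact permutation p = 0.0571), and it was 0.602 without ApoE-/- replicate 1, the mouse with the highest Ltb.

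Ltbr (chr6:125306571-125313885, minus strand), the receptor of this complex, was the most even of the 10 genes. It received 1163, 996, 1121 and 1311 read pairs in ApoE-/- mice and 950, 801, 665 and 866 in WT mice, or 47.2, 43.6, 48.8 and 56.9 CPM against 43.6, 37.5, 36.8 and 41.5 CPM. ApoE-/- replicate 2 and WT replicate 1 were at nearly the same level, and the other 3 ApoE-/- mice lay above every WT mouse. The estimate for Ltbr was 0.30 on the log2 scale (SE 0.11, edgeR adjusted p = 0.325, exact permutation p = 0.0571), with a 95% interval of the fold from 1.03 to 1.47. The coefficient of variation of Ltbr was 11.5% in ApoE-/- and 8.1% in WT mice, against 56% and 42.5% for Cxcl13.

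The 2 genes of high endothelial venules had lower means in ApoE-/- mice, within the spread between mice. Glycam1 (chr15:103562759-103565081, minus strand), a mucin-like ligand of L-selectin, received 24, 7, 10 and 12 read pairs in ApoE-/- and 27, 12, 7 and 21 in WT mice. In CPM these were 0.974, 0.306, 0.436 and 0.521 against 1.24, 0.562, 0.388 and 1.00. The ranges overlapped widely, and replicate 1 was the highest of each genotype. The log2 fold change of Glycam1 was -0.51 (SE 0.48, edgeR adjusted p = 0.794), with a 95% interval of the fold from 0.329 to 1.49. Without ApoE-/- replicate 1 it was -0.926 and without WT replicate 1 it was -0.221.

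Chst4 (chr8:110029153-110039740, minus strand), the sulphotransferase, received 3, 0, 1 and 1 read pairs in ApoE-/- mice and 13, 2, 0 and 46 in WT mice. All ApoE-/- mice were at or under the floor of 3 counts, and only WT replicates 1 and 4 were above it. WT replicate 4 alone held 46 of the 61 WT pairs, at 2.20 CPM. The difference of means was -0.671 CPM (exact permutation test, two-sided, p = 0.257, n = 4 each). DESeq2 without WT replicate 3, a library at 0, called Chst4 lower (log2 fold change -4.21, adjusted p = 0.0425) in a fit that called 2.94% of genes, and with all libraries it did not (-3.80, adjusted p = 0.155).

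**Figure D3:**
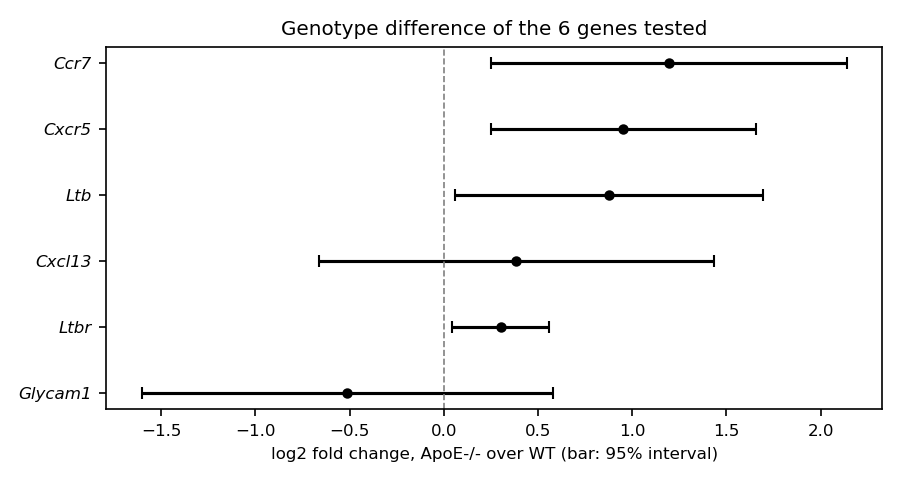
Points give the log2 fold change of ApoE-/- over WT for the 6 genes with enough reads to be tested, and horizontal bars give the 95% interval from edgeR. The intervals of Ccr7, Cxcr5, Ltb and Ltbr lie above 0 before adjustment for 15077 tests, and those of Cxcl13 and Glycam1 include 0.

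Per kilobase of exon, Ltbr and Cxcl13 stood far above the other 8 genes in both genotypes. In ApoE-/- mice Ltbr averaged 20.9 ± 2.39 and Cxcl13 14.6 ± 8.17 CPM per kb (SD, n = 4 each), and in WT mice they averaged 16.9 ± 1.37 and 11.2 ± 4.75. The ranges of these 2 genes overlapped in both genotypes, so their order was not beyond their spread. Next in ApoE-/- mice came Ltb at 0.685 ± 0.251, Ccl19 at 0.654 ± 0.273, Ccr7 at 0.558 ± 0.232, Cxcr5 at 0.382 ± 0.123 and Glycam1 at 0.262 ± 0.136 CPM per kb, each overlapping its neighbours. In WT mice the same 5 genes lay between 0.196 (Cxcr5) and 0.374 (Glycam1) CPM per kb, together with Chst4 at 0.317 ± 0.447, and neighbours overlapped again. Lta was the lowest gene with any read in WT mice, at 0.0337 ± 0.0479, and in ApoE-/- mice Lta and Chst4 were both at 0.023 CPM per kb. For Ccl19 only 439 of 914 stretches of 50 bases were not shared, so its level per kb and its place in the order may be too low.

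The 10 genes did not peak in a single aorta. Cxcl13, Ccl19, Ccr7 and Ltbr were highest in ApoE-/- replicate 4, Cxcr5 in ApoE-/- replicate 2 and Ltb in ApoE-/- replicate 1, whereas Glycam1, Lta and Chst4 were highest in WT replicates 1, 2 and 4. The summed level of the 9 macrophage genes was also highest in ApoE-/- replicate 4 (1218 CPM), followed by replicates 3, 2 and 1 at 697, 468 and 227 CPM, against 129 to 176 CPM in WT mice. The part of macrophage content in the levels of Ltbr, Ccr7 or Cxcl13 was not tested. ApoE-/- replicate 4 was also the mouse with the least cardiac muscle signal, 160 CPM summed over 9 genes against 335 to 344 CPM in the other ApoE-/- mice.

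The genes whose profiles were most like those of the 6 tested genes over the 8 libraries were found by Pearson's r of log2 CPM, given as a description of libraries that share their depth and composition. Ltbr ran closest to Pld4 (r = 0.99), Arhgap9 (r = 0.986) and Apobr (r = 0.98), and Ccr7 to Ano10 (r = 0.959), Dtl (r = 0.952) and Cdk1 (r = 0.95), the mitotic kinase. Ltb ran with Gak (r = 0.959), Il18r1 (r = 0.953), a subunit of the interleukin-18 receptor, and Sec14l2 (r = 0.944). The profile of Cxcl13 was most like those of Cops2 (r = 0.96), Wdr36 (r = 0.95) and St3gal6 (r = 0.947), that of Cxcr5 like Med7 (r = 0.941), Ncs1 (r = 0.926) and Psmg3 (r = 0.92), and that of Glycam1 like Glyctk (r = 0.971), Adprhl1 (r = 0.967) and Sh3tc1 (r = 0.959). None of these 18 genes was called between the genotypes by edgeR, with adjusted p-values from 0.148 to 0.976.

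The rest of the lymphotoxin and alternative NF-kB pathway, 20 genes of which 18 were tested, had 0 edgeR calls, 8 genes with an unadjusted edgeR p under 0.05 (11.4% of all genes) and 5 genes called higher by DESeq2, where 2.84% of genes were called higher. The median log2 fold change was 0.316. Il7r, the interleukin-7 receptor chain, averaged 13.3 ± 7.24 CPM in ApoE-/- and 2.34 ± 0.628 CPM in WT mice (log2 fold change 2.50, edgeR adjusted p = 0.0592). Tnfrsf11b, which encodes the decoy receptor osteoprotegerin, averaged 103 ± 79 against 14.1 ± 1.16 CPM (2.88, adjusted p = 0.0748), and Tnfrsf1b, a TNF receptor, 58.1 ± 16.7 against 26.8 ± 3.08 CPM (1.11, adjusted p = 0.0648). ApoE-/- mice were higher without overlap for 7 of the 18 genes, these 3 included, against 5.41% of all genes tested. Without ApoE-/- replicate 1 edgeR called all 3, together with Tnfsf11 and Tnfsf13b, against 3.91% of all genes in that fit. The best counted genes of the list, Tnfrsf1a at 97.4 ± 16.8 against 81.1 ± 6.84 CPM and Birc2 at 88.8 ± 12.4 against 88.7 ± 10.9 CPM, were not called by either tool. The transcription factor genes of the alternative pathway, Relb and Nfkb2, were named after their values were seen: Relb averaged 22.2 ± 3.56 against 15.6 ± 1.38 CPM (log2 fold change 0.51, edgeR adjusted p = 0.163), and Nfkb2 33.5 ± 5.02 against 28.0 ± 1.80 CPM (0.26, adjusted p = 0.522).

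The list of other homing chemokines and receptors held 15 genes, of which edgeR tested 12. Their median log2 fold change was 0.0952, against 0.0474 over all genes tested. DESeq2 called 2.84% of all genes higher and 4.29% in either direction. In this list it called Cxcl16, a membrane-bound chemokine (27.7 ± 12.2 CPM in ApoE-/- against 8.52 ± 1.59 CPM in WT mice, edgeR log2 fold change 1.70, adjusted p = 0.0756), and the sparse Ccr6 (0.605 ± 0.18 against 0.121 ± 0.0798 CPM) higher. It called Ackr4, a scavenger of CCL19 and CCL21, lower (13.2 ± 2.42 against 23.6 ± 6.03 CPM, edgeR log2 fold change -0.84, adjusted p = 0.126). The most abundant genes of this list, Cxcl12 (248 ± 23.5 against 262 ± 44.5 CPM) and S1pr1 (161 ± 34.5 against 213 ± 21.2 CPM), were not called by either tool.

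The entry route of lymphocytes was described by 15 high endothelial venule and selectin genes. edgeR called 0 of the 13 tested, and 5 had an unadjusted p under 0.05, against 11.4% of all genes. DESeq2, which called 4.29% of all genes, called Sele and Selp higher and Emcn lower. Sele, the E-selectin gene, averaged 8.84 ± 2.87 CPM in ApoE-/- and 3.05 ± 0.492 CPM in WT mice (log2 fold change 1.53, edgeR adjusted p = 0.0523). Selp, the P-selectin gene, averaged 46.8 ± 15.1 and 19.0 ± 4.05 CPM (1.30, adjusted p = 0.0684). Emcn, an endothelial sialomucin, averaged 51.3 ± 7.35 and 79.8 ± 12.2 CPM (-0.64, adjusted p = 0.107), and the abundant Podxl and Cd34 averaged 175 ± 26.2 against 247 ± 33.5 and 189 ± 57.6 against 188 ± 20.6 CPM. edgeR called Sele, Selp and Emcn when ApoE-/- replicate 1 was left out, in the fit that called 3.91% of all genes.

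**Figure D4:**
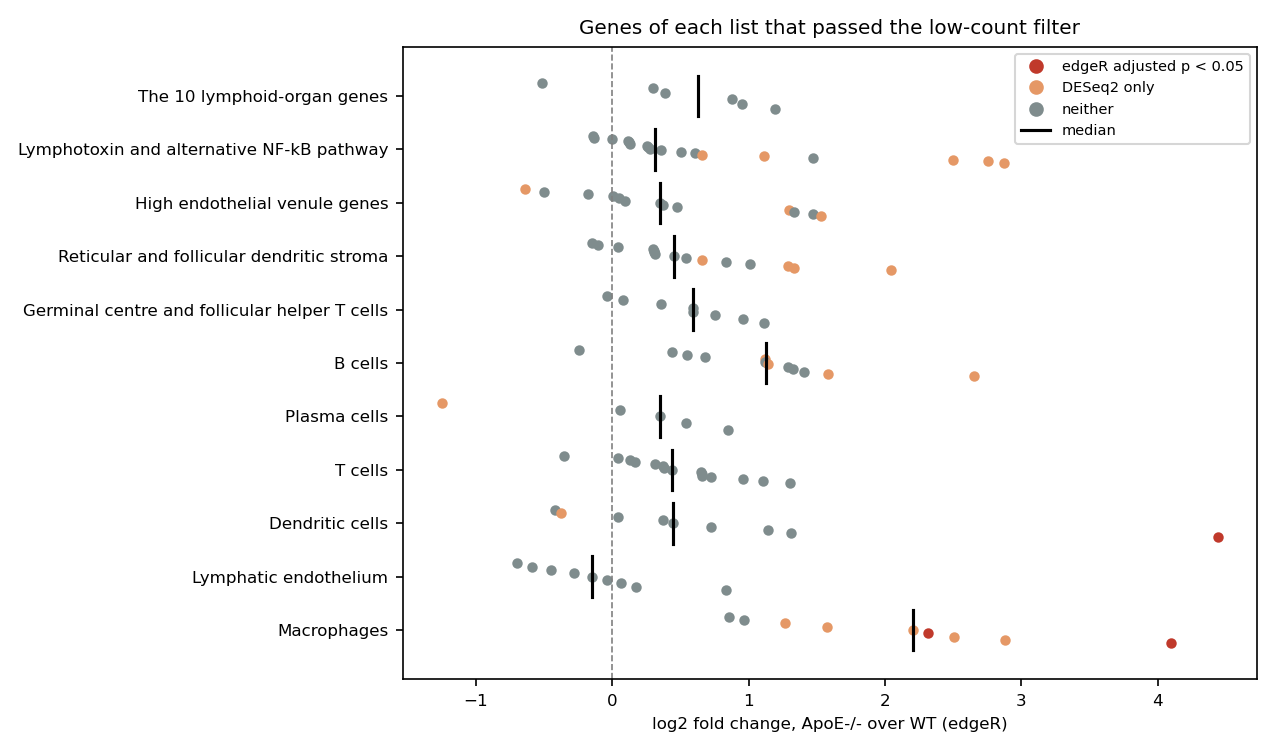
Each point is 1 gene that passed the low-count filter, placed by its edgeR log2 fold change of ApoE-/- over WT (horizontal axis), with a row for each gene list and a black bar for the list's median. The medians are 0.631 for the lymphoid-organ genes, 1.13 for B cell genes and 2.21 for macrophage genes, red points are edgeR calls (Itgax, Fcgr1 and Trem2), and orange points are calls of DESeq2 only.

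Stromal genes of reticular and follicular dendritic cells had 0 of 15 called by edgeR, 6 with an unadjusted p under 0.05 (11.4% of all genes) and 4 called higher by DESeq2 (Vcam1, C4b, Clu and Tnfsf13b, against 2.84% of all genes). Vcam1, an adhesion molecule of activated stroma, endothelium and smooth muscle, averaged 355.5 ± 161 CPM in ApoE-/- and 86.3 ± 16 CPM in WT mice (log2 fold change 2.04, edgeR adjusted p = 0.0526). C4b, a complement component, averaged 513 ± 172.5 against 210 ± 47.4 CPM, and Clu 714 ± 313 against 284 ± 40.3 CPM. Mfge8, the other abundant gene of the list, averaged 554 ± 228 against 449 ± 75.8 CPM (adjusted p = 0.824). Cr2 and Fcer2a, complement and IgE receptors that mark follicular dendritic cells and B cells and were named after their values were seen, had log2 fold changes of -0.14 (adjusted p = 0.841) and -0.10 (adjusted p = 0.941).

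B cell genes had the highest median log2 fold change of the lymphocyte lists, 1.13 over the 12 of 14 genes tested. edgeR called 0 of them, 7 had an unadjusted p under 0.05 (11.4% of all genes), DESeq2 called 4 higher (Cd22, Bank1, Cd37 and Blk, against 2.84% of all genes), and the genotypes did not overlap, with higher values in ApoE-/- mice, for 5 of the 12, against 5.41% of all genes tested. Cd22, an inhibitory co-receptor of B cells, averaged 7.73 ± 3.57 CPM in ApoE-/- and 1.22 ± 0.528 CPM in WT mice (log2 fold change 2.65, edgeR adjusted p = 0.0526). Bank1, a B cell scaffold protein gene, averaged 6.63 ± 1.5 against 3.00 ± 0.755 CPM, and Cd37 averaged 7.22 ± 2.28 against 3.32 ± 0.745 CPM. Ebf1, which is also expressed outside B cells, was the most abundant gene of the list at 215 ± 29.6 against 254 ± 16.1 CPM (log2 fold change -0.24, adjusted p = 0.586). It set the summed level of the list, 216 to 275 CPM in ApoE-/- and 249 to 281 CPM in WT mice. The summed B cell level therefore did not follow the median of the list, and its part in the levels of Cxcr5 was not tested.

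T cell genes had 0 of 15 called by edgeR or DESeq2 and 3 with an unadjusted edgeR p under 0.05 (11.4% of all genes), with a median log2 fold change of 0.438 and summed levels of 19.9 to 30 CPM in ApoE-/- and 17.4 to 21.4 CPM in WT mice. Cd247, the CD3 zeta chain, averaged 4.00 ± 1.18 against 2.95 ± 0.699 CPM, and Foxp3, the regulatory T cell factor, 2.70 ± 0.458 against 3.45 ± 0.573 CPM. Germinal centre and follicular helper T cell genes had 0 of 8 called by either tool and 3 with an unadjusted p under 0.05 (11.4% of all genes). Their median log2 fold change was 0.592, with 7 estimates above 0 and 1 below. Of the 8, 1 was higher without overlap, against 5.41% of all genes tested. Bcl6 averaged 50.4 ± 14.8 against 47.6 ± 4.27 CPM, and the proliferation gene Mki67 16.7 ± 5.59 against 8.57 ± 2.81 CPM (log2 fold change 0.96, edgeR adjusted p = 0.264). Il21, a follicular helper T cell cytokine named after its values were seen, held 8 read pairs in all libraries and was not tested. Of the plasma cell genes, 5 were tested and edgeR called 0, with 1 unadjusted p under 0.05 (11.4% of all genes). Estimates were above 0 for 4 of the 5, and the median log2 fold change was 0.353. The 1 gene below 0 was Irf4, which DESeq2 called lower (68.7 ± 35.7 against 163 ± 52.7 CPM, edgeR log2 fold change -1.25, adjusted p = 0.235). Xbp1 was at 148 ± 21 against 142 ± 8.88 CPM.

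Dendritic cell and macrophage genes, with 9 tested in each list, held 3 edgeR calls, all higher in ApoE-/- mice, against 0.371% of all genes tested. Itgax, the CD11c integrin shared by dendritic cells and plaque macrophages, averaged 33.5 ± 21.2 CPM in ApoE-/- and 1.53 ± 0.329 CPM in WT mice (log2 fold change 4.44, edgeR adjusted p = 0.038). The other 8 dendritic cell genes tested were not called by edgeR. Of the 9, 6 had an unadjusted edgeR p under 0.05, against 11.4% of all genes. Estimates were above 0 for 7 of the 9, against 58% of all genes, and below 0 for 2, Clec9a and Zbtb46. The median log2 fold change of the list was 0.447. DESeq2 called Clec9a, a marker of conventional dendritic cells, lower (9.81 ± 0.834 against 12.7 ± 0.7 CPM, edgeR log2 fold change -0.37, adjusted p = 0.207). Zbtb46, their transcription factor, averaged 50.3 ± 6.44 against 67.1 ± 6.05 CPM, and Fscn1, a gene of mature dendritic cells, 18.5 ± 16.6 against 17.96 ± 2.65 CPM.

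All 9 macrophage genes were higher without overlap between the genotypes, against 5.41% of all genes tested, with a median log2 fold change of 2.21. edgeR called Fcgr1 (6.87 ± 2.27 against 1.37 ± 0.247 CPM, log2 fold change 2.32, adjusted p = 0.0355) and Trem2 (22.2 ± 15.8 against 1.29 ± 0.238 CPM, 4.10, adjusted p = 0.0434). DESeq2 called 7 of the 9 higher, against 2.84% of all genes, among them Lgals3 (98.7 ± 62.2 against 17.3 ± 1.52 CPM), Gpnmb (316 ± 243 against 42.9 ± 8.39 CPM) and Cd68 (35.1 ± 22 against 7.59 ± 1.48 CPM), but not Csf1r (109 ± 51.1 against 60.2 ± 11 CPM). The edgeR calls of Itgax, Fcgr1 and Trem2 were lost when any mouse but ApoE-/- replicate 1 was left out, with adjusted p-values up to 0.177. Over these leave-outs the log2 fold changes ran from 4.09 to 4.77 for Itgax, 2.07 to 2.45 for Fcgr1 and 3.63 to 4.43 for Trem2. With all mice limma-voom called Fcgr1 but not Itgax or Trem2.

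Genes of the other tissues around the aorta had 0 edgeR calls with all mice, and unadjusted p-values under 0.05 were found for 2 lymphatic endothelial, 5 endothelial and 8 cardiac muscle genes and for 0 adipose, smooth muscle or blood genes, against 11.4% of all genes. Without ApoE-/- replicate 1 edgeR called Myh6 lower (log2 fold change -6.03, against -3.04 with all mice). That fit, which called 3.91% of all genes, also called Myl4, Nppa, Tnnt2, Kdr and Prox1 lower, among others. Lymphatic endothelial genes had a median log2 fold change of -0.148 over 9 tested, with Nrp2 at 143 ± 38.5 against 159 ± 28.9 CPM and Sema3d at 113 ± 63.9 against 115.5 ± 30.1 CPM. Endothelial genes had a median of -0.351, and DESeq2 called 4 of 9 lower (4.29% of all genes were called in either direction), including Kdr (133 ± 35.4 against 230 ± 28.1 CPM) and Cdh5 (218 ± 15.5 against 281 ± 22.6 CPM), but not Vwf (685 ± 184 against 900 ± 209 CPM) or Pecam1 (586 ± 189 against 707 ± 93.7 CPM). Genes of cardiac muscle, which adjoins the aortic root, had a median of -2.77, and ApoE-/- mice were lower without overlap for 8 of 9, against 3.3% of all genes tested. DESeq2, which called 4.29% of genes in either direction, called 5 of the 9 lower, including Myl4 (6.52 ± 4.29 against 36 ± 15.8 CPM), Nppa (1.42 ± 1.25 against 16.1 ± 11.7 CPM) and Tnnt2 (7.69 ± 3.28 against 32.3 ± 18.1 CPM), while Myh6 (14.1 ± 24.8 against 116 ± 29.6 CPM) and Ryr2 (235 ± 85.9 against 238 ± 65.8 CPM) were not called. Adipose genes (median -0.42, Fabp4 at 2251 ± 1233 against 3137 ± 623.5 CPM, Cfd at 1902 ± 1592 against 1599 ± 487 CPM), smooth muscle genes (median -0.142, Acta2 at 4312 ± 2067 against 4857 ± 1290 CPM) and blood genes (median -0.109, Hbb-bs at 93.2 ± 84.3 against 100.5 ± 37.6 CPM, Hba-a1 at 18.1 ± 17.8 against 17.98 ± 6.25 CPM) had 0 calls by either tool. The summed cardiac muscle genes lay at 160 to 344 CPM in ApoE-/- and 419 to 737 CPM in WT mice, without overlap, and the summed blood genes at 33.4 to 303 and 124 to 241 CPM. The part of these tissues in the levels of the 10 genes was not tested.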

How the data were processed

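Aortic RNA of 8 mice, 4 ApoE-/- and 4 WT, was sequenced by the authors as stranded, ribodepleted libraries in paired-end reads of 50 bases. The deposited values are the authors' raw counts, without normalization, of the read pairs that fell uniquely on a gene and its strand. The submitters' processing notes name TopHat2, HTSeq, GRCm38 and mm10, and versions are not given in the sources used here. Totals for pairs without a gene, ambiguous or not unique were kept out of library sizes and tests: pairs without a gene made up 50.1% to 58% of a library, and ambiguous pairs 0.85% to 1.32%. The libraries held 18375898 to 23940156 pairs on genes, which sets the precision of the sparse genes.

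Genes were filtered with filterByExpr and compared with edgeR 4.0.16 in R 4.3.3 (TMM factors, glmQLFit with robust = TRUE, glmQLFTest, genotype only, two-sided). P-values were adjusted by Benjamini-Hochberg over all 15077 genes tested, with a threshold of 0.05. The SE is the log2 fold change divided by the square root of F, and the 95% intervals use edgeR's total degrees of freedom. Genes left out by the filter were compared by exact permutation over the 70 assignments. DESeq2 1.42.0, limma-voom (limma 3.58.1), other factors and filters, and leaving out each mouse were alternatives, and DESeq2 without each mouse was added after the data were seen. The fit was tested on simulated counts. Stretches of 50 bases were compared among the transcripts of GENCODE M21 (GRCm38), in which 21817 gene identifiers were found and 42 were not. The whole genome was not searched.

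The 10 genes and the companion lists were chosen with earlier results of these data known. Named were all 10 genes, the Ccl21a and Ccl19 copies, Apoe, and, of each list, the edgeR calls, up to 3 further DESeq2 calls with the smallest adjusted p and the 2 genes of highest mean CPM, and the 3 genes most like each tested gene by Pearson's r of log2 CPM, leaving out symbols that start with Gm or end in Rik. Results for 2 genes of the companion lists are not reported here. Each library was 1 mouse, and the groups shared replicate numbers but no animals.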

Additional observations from a re-analysis of the deposited data

Results flagged for a closer look

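Of 50 groups of 4 values scanned, 3 held a mouse far from the other 3 by Dixon's criterion (the gap to the nearest mouse over the range), and chance gives about 1 in 20, or 2.5. Ccl19 was at 0 CPM in WT replicate 4, against 0.328 to 0.367 CPM in the other WT mice, a gap of 0.892 of the range. Lta was at 0 CPM in ApoE-/- replicate 3, against 0.0406 to 0.0437 CPM in the others, a gap of 0.928 of the range, which stands for 1 read pair. The summed cardiac muscle genes were at 160 CPM in ApoE-/- replicate 4, against 335 to 344 CPM in the other ApoE-/- mice, a gap of 0.946 of the range. No explanation was tested for these values.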

How the results depend on the processing

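The count of the 10 genes called was 0 in the edgeR fit and in the other 8 analyses with all mice (DESeq2, limma-voom, RLE or upper-quartile factors, no filter, a minimum of 10 counts in 4 libraries, no robust estimation and the replicate block). Leaving out mice gave 0 to 1, where the 1 was Cxcr5 in DESeq2 without ApoE-/- replicate 4 or Chst4 in DESeq2 without WT replicate 3, both added after the data were seen. Over all genes the count of 70 moved to 721 with DESeq2 and 29 with limma-voom, and it ranged from 0 to 1548 when mice were left out: edgeR gave 593 without ApoE-/- replicate 1 and 0 to 17 without any other mouse. With the replicate number as a block 2 genes were called. The numbers do not pair animals, since each library was a different mouse. Deviations of same-numbered mice correlated at 0.0616, -0.435, 0.275 and 0.151, and those of unlike-numbered mice at -0.653 to 0.653. With values so spread, these correlations cannot decide whether mice of the same number shared handling. The cause of these changes was not tested.

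The log2 fold change of Cxcl13 reversed to -0.0204 in DESeq2 without ApoE-/- replicate 4 and otherwise ran from 0.00686 to 0.651. The directions of Ccr7, Cxcr5, Ltb, Ltbr and Glycam1 held in all 24 alternatives. For the companion lists 122 counts moved by over 1.5 times, 96 of them with DESeq2 or without ApoE-/- replicate 1. Summed Ccl21a counts went from 0 to 1 with the copies. Plain CPM changed no direction for Ccl19, Lta or Chst4. Lta, Chst4, Ccl19 and Ccl21a did not pass the low-count filter of the edgeR fit, and the first 3 rest on 7, 66 and 74 read pairs in all libraries. With 4 mice a group the 95% interval of the fold ran from 0.329 to 1.49 for Glycam1 and from 0.631 to 2.70 for Cxcl13.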
